A study of Mus musculus with 15 samples.

Results

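M1P, a mouse mammary tumour line, was compared with E1KD, the line it came from, over 18193 genes on 6 of the 15 arrays of the series, 3 arrays per line. M1P was recovered from a primary mammary tumour that E1KD cells had formed in the mammary fat pad of NOD/SCID mice, a strain without working T and B cells. E1KD is the NMuMG mammary gland epithelial line with hnRNP E1 silenced and had undergone no selection in mice, so M1P and E1KD share the silenced background and, per the labels, the same culture medium. The other 9 arrays hold the unsilenced parent NMuMG, which does not form tumours, and the lung lines L1P and L2P, which were recovered from lung metastases of E1KD origin and which are used below as a second comparison. Each gene was represented by the probe set with the highest mean over the 15 arrays, and its signal is given on the log2 scale. Whether the 3 arrays of each line represent separate cultures is not stated in the labels, and p-values therefore measure a spread that may be technical. M1P and E1KD are 1 line each, and changes acquired in the tumour and changes acquired in later culture cannot be told apart.

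The protein hnRNP E1, the product of Pcbp1, binds C-rich stretches of RNA and holds back the translation of selected messages, several of which act in the conversion of epithelial into mesenchymal cells. When it is lost, mammary epithelial cells acquire mesenchymal features and can form tumours. Cells recovered from such a tumour are the descendants of those that grew in the mouse, so a recovered line can differ from the injected line by selection as well as by change.

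The M1P arrays differed among themselves more than the arrays of the other lines. Over all genes, M1P arrays 1 and 2 correlated at 0.962, arrays 2 and 3 at 0.976 and arrays 1 and 3 at 0.92, against 0.992 to 0.995 between E1KD arrays. The median SD per gene was 0.318 in M1P and 0.152 in E1KD. Compared with the E1KD mean, 2924 genes were at least 1 log2 unit lower in M1P array 1, 1444 in array 2 and 521 in array 3, and the median difference over all genes was 0.37, 0.16 and 0.07 in the same order. Array 1 therefore lay farthest from E1KD and array 3 nearest.

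The differences in array 1 were ordered by gene length. The 6533 genes with a mean log2 signal of at least 7 in NMuMG, L1P and L2P and a known genomic span were split by span into 4 groups of equal size. In the group of shortest genes, with a median span of 5.56 kb, the median difference from E1KD was 0.68 in M1P array 1, 0.30 in array 2 and 0.20 in array 3. In the group of longest genes, with a median span of 88.3 kb, it was -1.26, -0.19 and -0.32. The L1P arrays had values between -0.09 and 0.11 in these 4 groups, and the L2P arrays between -0.13 and 0.18. L2P array 1 also fell with span, from 0.18 in the shortest genes to -0.13 in the longest. E1KD array 1, set against the other E1KD arrays, fell from 0.11 to -0.12. L1P array 3, L2P arrays 2 and 3 and E1KD array 2 rose with span instead. L1P arrays 1 and 2 and E1KD array 3 changed little. Signals from added poly(A) RNA controls were also higher, at 7.57, 6.95 and 8.16 log2 units in M1P arrays 1 to 3, against 6.34, 6.02 and 6.50 in E1KD. The 3′ minus 5′ signal of Actb was 0.64, 0.68 and 0.77 in M1P, against 0.80, 0.77 and 0.93 in E1KD, and that of the transferrin receptor control was 1.43, 1.72 and 2.50 in M1P, against 2.14, 2.00 and 2.44 in E1KD. The part of these array features in the results was not tested.

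**Figure D1:**
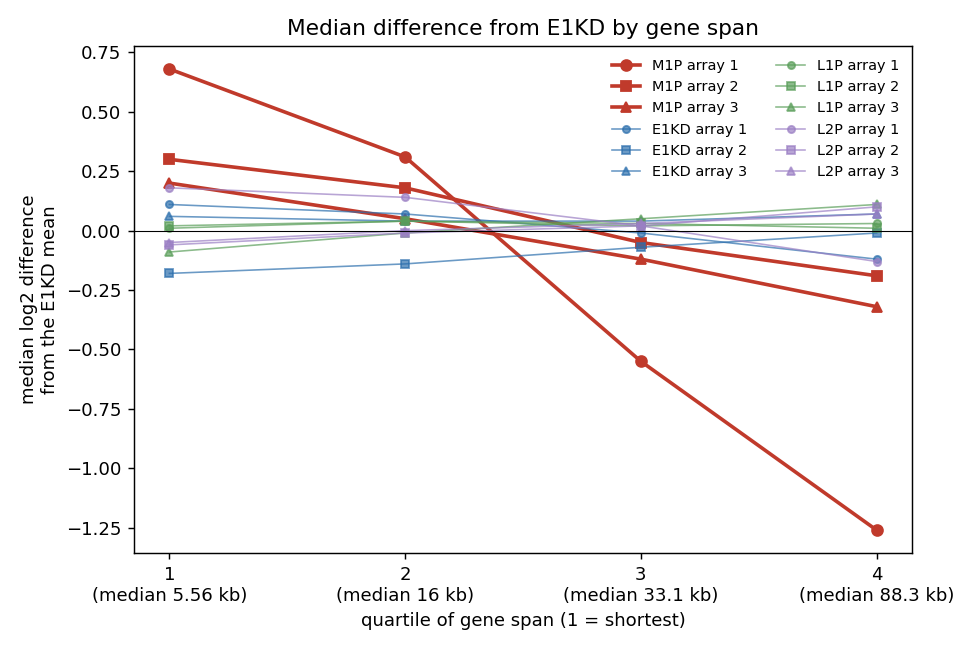
Median log2 difference of each M1P, L1P and L2P array from the E1KD mean, by group of genomic gene span, for 6533 genes of at least moderate signal. Each E1KD array is set against the mean of the other E1KD arrays. M1P array 1 runs from 0.68 in the shortest genes to -1.26 in the longest, while arrays 2 and 3 run from 0.30 to -0.19 and from 0.20 to -0.32.

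In limma's moderated test on all 15 arrays, 3221 genes rose in M1P (17.7% of 18193) and 1794 fell (9.86%) at a Benjamini-Hochberg adjusted p under 0.05, and these are the genes said below to have risen or fallen. The 3 M1P arrays lay above all 3 E1KD arrays in 5178 genes (28.5%) and below them in 2143 (11.8%), whether or not the gene passed. The 3 M1P arrays did not overlap the E1KD arrays in 7321 genes in all (40.2%). Leaving out M1P array 1 gave a total of 2021 in place of 5015, leaving out M1P array 3 gave 8510, and leaving out E1KD array 1, 2 or 3 gave 3136, 1106 or 2396. Calls were therefore also counted where they held on leaving out each of the 12 arrays of M1P, E1KD, L1P and L2P in turn. Such calls are termed stable here: 760 genes rose stably (4.18%) and 296 fell stably (1.63%). These fits still share 1 estimate of spread between the lines, so a stable call can be lost where the spread may differ by line. With M1P represented by array 3 alone, 412 genes rose (2.26%) and 397 fell (2.18%), 809 in all (4.45%), and 679 of the 5015 genes kept their call. When the model held the 6 arrays of M1P and E1KD alone, 40 genes rose (0.22%) and 27 fell (0.148%). With 1 weight per line, which lets the spread differ between lines, 975 rose (5.36%) and 818 fell (4.5%). In all 4 of these fits 64 genes were called, 39 of them higher and 25 lower in M1P.

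Pcbp1, the silenced gene, was far below its NMuMG level in both lines. Its log2 signal was 9.98, 10.09 and 9.41 in M1P arrays 1 to 3, against 9.36, 8.99 and 9.40 in E1KD, and averaged 12.68 in NMuMG. The M1P and E1KD arrays lay close together and did not overlap, and the difference of 0.58 ± 0.22 (SE) missed the threshold (adjusted p = 0.0631). On leaving out M1P array 3 the adjusted p was 0.0108, and on leaving out L1P array 2 it was 0.0416.

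Genes with the widest gap between the lines were taken first, 14 in each direction, ranked by the distance between the nearest M1P and E1KD arrays. The arrays of M1P and E1KD thus do not overlap in any of the 28 by the choice itself. None of the 28 lost its call on leaving out any 1 of the 12 arrays, which the choice of wide gaps also favours. Over all genes, every M1P array lay at least 1 log2 unit above every E1KD array in 84 genes (0.462%) and at least 1 unit below in 110 (0.605%). For 17 of the 28 genes the array carries further probe sets, 26 in all, of which 25 had the same direction and 17 differed by at least 1 log2 unit that way. The exception was a probe set of Peg3.

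At the head of the genes that rose were a membrane protein and a pair of small LIM domain proteins. Tm4sf1, a tetraspan-like surface protein of the L6 family found on many carcinomas and on migrating endothelium, had log2 signals of 13.48, 13.34 and 13.24 in M1P, against 6.85, 6.12 and 6.35 in E1KD. M1P was thus near the top of the signal range on every array and E1KD far below (difference 6.91 ± 0.18, adjusted p = 6.62e-11). Crip1, a short protein made of a single zinc-binding LIM domain, had values between 10.77 and 11.20 in M1P, against 5.40, 5.06 and 5.48 in E1KD (5.68 ± 0.16, adjusted p = 1.3e-10). Its relative Crip2 had 11.31, 11.11 and 11.22 in M1P, against 8.02, 7.57 and 7.63 in E1KD (3.47 ± 0.17, adjusted p = 9.49e-08). All 3 genes were nearly as high in array 3 as in arrays 1 and 2. Tm4sf1 was also high in NMuMG, at a mean of 12.12, whereas Crip1 was low there at 5.65 and Crip2 at 6.54.

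Crip1 and Crip2 are next to each other among the genes tested on chromosome 12. Their promoters, with those of Tm4sf1 and of Gatm, at the head of the genes that fell, are printed here to show what lies before the start of the genes with the clearest differences. Sequences are the 250 bases before the annotated start from RefSeq (GRCm38.p6), 5′ to 3′ on the gene's strand, with the first of 2 annotated starts used for Crip2. Capitals mark matches, on either strand, to TATAAA for a TATA box, GGGCGG for a GC box, CCAAT for a CCAAT box and TGANTCA for an AP-1 site. The positions are chr3:57301989-57302238 on the minus strand for Tm4sf1, chr12:113151762-113152011 on the plus strand for Crip1, chr12:113139986-113140235 on the plus strand for Crip2 and chr2:122611278-122611527 on the minus strand for Gatm.
Tm4sf1: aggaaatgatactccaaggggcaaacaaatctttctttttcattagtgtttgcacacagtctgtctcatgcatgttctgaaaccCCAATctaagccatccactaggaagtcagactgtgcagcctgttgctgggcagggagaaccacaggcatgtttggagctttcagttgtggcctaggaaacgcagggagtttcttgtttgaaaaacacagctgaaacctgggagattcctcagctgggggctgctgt
Crip1: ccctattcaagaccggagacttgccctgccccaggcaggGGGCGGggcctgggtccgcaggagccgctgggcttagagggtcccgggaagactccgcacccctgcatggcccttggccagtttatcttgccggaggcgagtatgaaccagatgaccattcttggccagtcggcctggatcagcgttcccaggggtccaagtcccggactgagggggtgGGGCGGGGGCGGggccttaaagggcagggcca
Crip2: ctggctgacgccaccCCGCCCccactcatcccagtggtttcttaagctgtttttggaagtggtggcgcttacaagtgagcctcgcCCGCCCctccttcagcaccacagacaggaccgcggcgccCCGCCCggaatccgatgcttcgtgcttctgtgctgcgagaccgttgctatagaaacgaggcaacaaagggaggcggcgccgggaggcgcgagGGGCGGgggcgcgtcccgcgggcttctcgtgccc
Gatm: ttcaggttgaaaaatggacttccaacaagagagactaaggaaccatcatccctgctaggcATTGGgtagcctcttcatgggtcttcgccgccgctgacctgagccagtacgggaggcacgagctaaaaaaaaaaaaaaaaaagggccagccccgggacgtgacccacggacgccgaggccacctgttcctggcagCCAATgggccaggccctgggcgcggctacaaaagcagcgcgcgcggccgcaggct

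The promoters of the neighbours Crip1 and Crip2 held 3 and 4 GC boxes and neither held any of the other motifs. That of Tm4sf1 held 1 CCAAT box and that of Gatm 2. Among 27025 promoters of the same length, 1 per gene, 32.9% held a GC box, 34.5% a CCAAT box, 13% a TATA box and 6.87% an AP-1 site. The CpG count was 1 for Tm4sf1, 13 for Crip1, 26 for Crip2 and 17 for Gatm, against a median of 6. These matches describe letters only. The 4 genes were chosen for printing after their values were seen.

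Among secreted and signalling genes, Wnt10a, a ligand of the canonical Wnt pathway, had 10.42, 9.96 and 8.27 in M1P, against 4.78, 5.08 and 4.18 in E1KD (4.87 ± 0.46, adjusted p = 6.08e-05). Array 3 was the lowest of the M1P arrays but still 3.19 log2 units above the highest E1KD array. Mapk12, the p38 gamma stress kinase, had 8.58, 7.83 and 7.51 in M1P, against 3.30, 3.14 and 3.68 in E1KD (4.60 ± 0.27, adjusted p = 5.55e-07). Cxcl3, a chemokine that attracts neutrophils, had 8.53, 7.90 and 4.86 in M1P, against 2.60, 2.35 and 2.53 in E1KD (4.61 ± 0.65, adjusted p = 0.00114). Cxcl3 was thus high in arrays 1 and 2 and much lower in array 3, and with the M1P and E1KD arrays alone in the model its adjusted p was 0.0978. Sigirr, a receptor that damps interleukin-1 and Toll-like signalling, had 10.48, 10.17 and 9.99 in M1P, against 6.94, 6.50 and 6.71 in E1KD (3.50 ± 0.23, adjusted p = 1.51e-06). Ly6e, a GPI-anchored surface protein, had 10.99, 10.66 and 9.73 in M1P, against 7.02, 6.36 and 6.99 in E1KD (3.66 ± 0.37, adjusted p = 8.72e-05).

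Csn3, which encodes the milk protein kappa-casein, had 8.06, 7.57 and 7.67 in M1P, against values between 3.33 and 4.01 in E1KD (3.98 ± 0.31, adjusted p = 8.27e-06). On this probe set M1P was evenly high and also above NMuMG, at a mean of 5.09. Another Csn3 probe set was near the lowest signals in both lines, at 2.27 in M1P and 2.21 in E1KD. Serpinh1, the collagen chaperone of the endoplasmic reticulum, had 10.26, 9.86 and 9.39 in M1P, against 6.95, 6.26 and 6.57 in E1KD (3.24 ± 0.25, adjusted p = 7.8e-06). The connexin Gjb5, a gap junction subunit of stratified epithelium, had 8.63, 8.23 and 8.12 in M1P, against 5.17, 4.08 and 4.60 in E1KD (3.71 ± 0.31, adjusted p = 1.61e-05). Gjb5 was also high in NMuMG, at a mean of 8.06. Irx3, an Iroquois homeobox transcription factor, had 8.34, 7.93 and 7.47 in M1P, against 5.05, 4.56 and 5.03 in E1KD (3.03 ± 0.27, adjusted p = 3e-05). In each of these 4 genes every M1P array was more than 2 log2 units above every E1KD array. The 14 were completed by AI467606, for which no role is given here (4.96 ± 0.19, adjusted p = 4.49e-09), and Kcnab2, a beta subunit of voltage-gated potassium channels (3.13 ± 0.21, adjusted p = 2.13e-06). AI467606 averaged 10.69 in M1P, 9.69 in NMuMG, 10.37 in L1P and 10.51 in L2P, so E1KD, at 5.72, was the low line.

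Among the genes that fell, several were near the lowest signals of the table in M1P. Gatm, the enzyme of the first step of creatine synthesis, had 2.40, 2.53 and 2.44 in M1P, against 7.32, 7.40 and 7.53 in E1KD (-4.95 ± 0.13, adjusted p = 6.62e-11). F2r, the thrombin receptor PAR1, had 2.60, 2.33 and 2.45 in M1P, against 6.19, 6.10 and 6.22 in E1KD (-3.71 ± 0.12, adjusted p = 5.69e-10). Bcat1, the cytosolic aminotransferase of branched-chain amino acids, had 3.34, 3.75 and 3.76 in M1P, against 7.94, 6.84 and 7.58 in E1KD (-3.84 ± 0.23, adjusted p = 5.55e-07). Other Bcat1 probe sets, with low E1KD means of 4.35 and 3.84, differed by -0.61 and -0.34. The M1P arrays agreed closely in these genes, and array 3 did not stand apart. Since low signals were not separated from no signal, the differences are compressed at the M1P end. In NMuMG, Gatm was about as low as in M1P, at a mean of 2.56, Bcat1 was lower than in M1P, at 2.44, and F2r was high, at 10.54.

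Of the 14 lower genes, 3 lie on the X chromosome, and of the 14 higher genes 0, where X holds 617 of the 18193 genes (3.39%). X was not alone in this, since Bcat1, Slco1a5 and Arhgdib of the lower 14 lie on chromosome 6 (5.45% of genes). Of the higher 14, AI467606, Sigirr and Serpinh1 lie on chromosome 7 (7.77%), and Csn3 and Cxcl3 on chromosome 5 (6.16%). Xist, the non-coding RNA that coats and silences an X chromosome, had 4.47, 4.40 and 4.51 in M1P, against 10.07, 10.77 and 9.16 in E1KD (-5.54 ± 0.35, adjusted p = 1.06e-06). Klhl13, an adaptor of a cullin ubiquitin ligase that acts in mitosis of human cells, had 2.54, 2.32 and 2.69 in M1P, against 7.03, 7.68 and 8.52 in E1KD (-5.22 ± 0.27, adjusted p = 1.66e-07). Rhox5, a homeobox gene of the reproductive tract, had 9.30, 9.76 and 9.59 in M1P, against 11.68, 11.60 and 11.74 in E1KD (-2.12 ± 0.14, adjusted p = 1.78e-06). Rhox5 kept a high signal in M1P, whereas Klhl13 was near the lowest signals of the table and Xist was low on every M1P array. The paternally expressed imprinted gene Peg3, on chromosome 7, had 3.56, 5.22 and 6.85 in M1P, against 10.90, 11.47 and 11.14 in E1KD (-5.96 ± 0.64, adjusted p = 0.000164). It was the most uneven of the 14 over the M1P arrays, lowest in array 1 and highest in array 3, with every M1P array at least 4.05 log2 units below every E1KD array.

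The remaining lower genes had differences of -3.22 to -2.23. Ccl9, a chemokine of myeloid cells, had 5.21, 5.63 and 4.85 in M1P, against 8.13, 7.69 and 7.91 in E1KD (-2.68 ± 0.21, adjusted p = 9.51e-06). Arhgdib, a gene typical of blood cells, had 5.60, 5.50 and 5.38 in M1P, against 7.75, 7.44 and 7.99 in E1KD (-2.23 ± 0.18, adjusted p = 1.25e-05). Slco1a5, an organic anion transporter, had 3.68, 3.70 and 4.26 in M1P, against 6.25, 6.22 and 6.43 in E1KD (-2.42 ± 0.20, adjusted p = 1.61e-05). Gm6958, for which no role is given here, also fell (-2.37 ± 0.10, adjusted p = 2.33e-08). The M1P arrays lay close together in Arhgdib, while array 3 was the lowest in Ccl9 and the least low in Slco1a5. Onecut2, a homeobox factor (-3.22 ± 0.59, adjusted p = 0.00437), Elmod1, a regulator of small GTPases (-3.16 ± 0.37, adjusted p = 0.000275), and Ints6, a subunit of the Integrator complex (-2.52 ± 0.39, adjusted p = 0.00187), were lowest in array 1 and least low in array 3. In array 3 alone Onecut2 had an adjusted p of 0.101, and with the M1P and E1KD arrays alone in the model Elmod1 had 0.0723 and Ints6 0.0626.

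**Figure D2:**
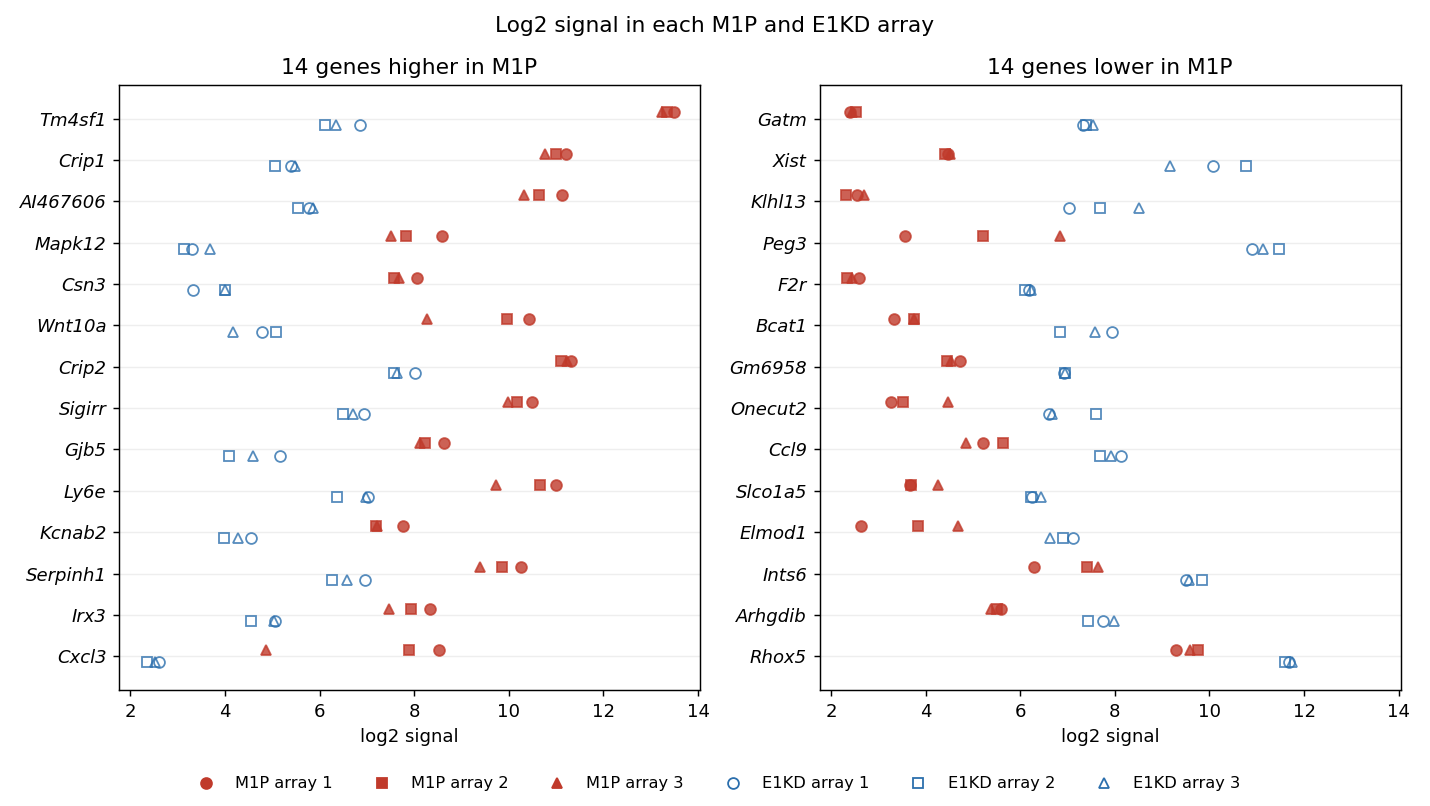
Log2 signal of each M1P and E1KD array for the 14 genes with the widest gap above E1KD and the 14 with the widest gap below. M1P points are drawn beside E1KD points for each gene. The M1P arrays of Cxcl3, Wnt10a and Peg3 are spread widely, those of Tm4sf1, Crip2, Gatm and F2r lie close together.

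Beyond the 28, the genes called in all 4 fits include further named groups, picked here after their values were seen. Eno3, the muscle form of the glycolytic enzyme enolase (2.59), Sncg, gamma-synuclein (2.80), Capg, an actin filament capping protein (1.70), and Htra3, a secreted serine protease (1.83), rose. Thbs1, the matrix glycoprotein thrombospondin 1 (-2.51), Abcc2, an export pump for conjugated compounds (-2.25), Tiam1, an activator of the GTPase Rac (-2.05), and Chst11, a chondroitin sulfotransferase (-2.00), fell. Of the 39 genes that rose in all 4 fits, 10 lie on chromosome 7 and 5 on chromosome 5, and of the 25 that fell, 5 lie on X. Chromosome 7 holds 7.77% of all genes tested, chromosome 5 6.16% and X 3.39%.

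Gene lists for 47 pathways and families were then read member by member. They were written with earlier results of these data known, so counts are descriptions. The counts are set beside the 4.18% of all genes that rose stably and the 1.63% that fell stably. The share that rose stably was 12.7% on chromosome 7 and 10.5% on chromosome 5, and the counts take no account of chromosome. The part of these chromosome shares in the lists was not tested. With the M1P and E1KD arrays alone in the model, Thbs1, Sdc2, Pdlim1, Sdf2l1 and Xbp1 passed among the list members named below that are not among the 28, and the others had adjusted p-values of 0.0506 (Oasl1) or more. In array 3 alone, Asl, Cdc6, Dst, Egfr, Gsr, Hspd1, Hspe1, Ifitm2, Itgav, Itgb4, Lpp, Mcm5, Nrg1, Pdia6, Phlda2, Ppp1r15a, Tcf4 and Twist2 did not pass, with adjusted p-values from 0.0505 (Egfr) to 0.234 (Hspe1), and further genes that did not are marked where they are named. With 1 weight per line, Ccl2, Cdc6, Fabp4, Hspe1, Phlda2 and Ppp1r15a had adjusted p-values of 0.0534 (Phlda2) to 0.0716 (Cdc6). With a weight per array, 62 of 118 calls on named genes were lost. The 118 also hold the calls against the lung lines given below, none of which was lost, so all the losses were against E1KD. Differences are given for arrays 1, 2 and 3 in that order.

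Adhesion receptors moved in both directions. Of 28 integrins and adhesion receptors, 4 rose and 2 fell stably. The syndecan Sdc2, a heparan sulfate proteoglycan, rose by 1.53 ± 0.15 (adjusted p = 6.7e-05) and was higher by 1.56 in array 3, and the tetraspanin Cd81, with differences of 1.46, 1.48 and 0.91, rose by 1.28 ± 0.17 (adjusted p = 0.000627). Itgav, the alpha chain of RGD-binding integrins, fell by 2.01 ± 0.44 (adjusted p = 0.0101), and its partner Itgb6, with differences of -1.92, -1.04 and -1.57, fell by 1.51 ± 0.27 (adjusted p = 0.00406). Itgb4, the hemidesmosome integrin, which was counted with the laminins and basement membrane, was higher by 2.64, 2.36 and 1.20 (2.07 ± 0.36, adjusted p = 0.00332). Its partner tetraspanin Cd151 rose by 1.16 ± 0.15, and the cytoskeletal linker Dst, part of which anchors hemidesmosomes, fell by 2.50 ± 0.52 (adjusted p = 0.00776). Cd81 and Itgb4 thus differed least from E1KD in array 3.

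In the matrix lists, 2 of 26 collagen genes rose stably and 0 fell. Col6a1 was higher by 3.60, 3.32 and 1.43 (2.78 ± 0.45, adjusted p = 0.00247) and Col6a2, the second chain of the same collagen, by 2.14, 2.05 and 1.08 (1.76 ± 0.25, adjusted p = 0.00103). No other collagen had a stable call, and the collagen median was 0.68, 0.24 and 0.11 in the 3 arrays, against 0.37, 0.16 and 0.07 over all genes. Of 29 matrix proteases and inhibitors, 1 rose stably, the cathepsin Ctsd (1.30 ± 0.21, adjusted p = 0.00218), and with Ctsh (2.55 ± 0.36, adjusted p = 0.00111) it was 1 of 2 stable rises among 26 lysosomal genes. Thbs1 had differences of -2.77, -2.12 and -2.63 (-2.51 ± 0.22, adjusted p = 3.3e-05). All 3 M1P arrays were thus far below E1KD in Thbs1, while the collagen VI chains depended in size on arrays 1 and 2.

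Among LIM domain proteins, 5 of 24 rose stably and 1 fell. With Crip1 and Crip2, the actin-binding adaptor Pdlim1 was higher by 1.93, 1.94 and 1.67 (1.85 ± 0.22, adjusted p = 0.00028). Lpp, a focal adhesion protein, fell by 2.27 ± 0.44 (adjusted p = 0.00597). In the L6 family 1 of 4 genes rose stably, Tm4sf1, and in the Ly6 family 1 of 11, Ly6e, and no other member of either family had a stable call.

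Epithelial and mesenchymal genes had stable calls in both directions. The tricellular junction protein Marveld2 rose by 1.52 ± 0.21 (adjusted p = 0.000969), as 1 of 27 tight and adherens junction genes, and Gjb5 and the pannexin Panx1 (1.48 ± 0.22, adjusted p = 0.00152) as 2 of 14 desmosome and gap junction genes. Of 14 keratins 0 changed stably. Krt8, with Krt18 the keratin pair of simple epithelium, had 14.13, 14.05 and 13.93 in M1P, against 14.02, 13.82 and 13.86 in E1KD (0.14 ± 0.12, adjusted p = 0.363). Of 18 mesenchymal genes, smooth muscle actin Acta2 rose by 1.37 ± 0.19 (adjusted p = 0.000878), and N-cadherin Cdh2 fell by 1.55 ± 0.33 (adjusted p = 0.00898), with 0.0538 in array 3 alone, as did Ncam1 (-1.32 ± 0.31, adjusted p = 0.0123). Of 18 transcription factors of the epithelial to mesenchymal transition, Twist2 rose by 1.49 ± 0.27 (adjusted p = 0.00423) and Tcf4 fell by 2.70 ± 0.56 (adjusted p = 0.00786), with -4.09, -2.49 and -1.53 in the 3 arrays. Mesenchymal genes thus moved in both directions.

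Receptors and ligands of growth factor pathways were likewise divided. Of 34 ErbB, FGF and related genes, 3 rose stably and 2 fell. Erbb3, a neuregulin receptor that signals with Erbb2, was higher by 3.66, 2.88 and 1.63 (2.72 ± 0.39, adjusted p = 0.00121), and Fgfr3 rose by 2.34 ± 0.39 (adjusted p = 0.00279). Egfr fell by 1.33 ± 0.27 (adjusted p = 0.00763), and the ErbB3 ligand Nrg1 fell by 1.38 ± 0.30 (adjusted p = 0.00942). Receptor and ligand of the neuregulin pair thus differed in opposite directions. In the Wnt list 2 of 45 genes rose stably and 0 fell, Wnt10a and the receptor Fzd1 (1.94 ± 0.26, adjusted p = 0.00083). Among 22 Notch genes 3 rose stably, the ligands Jag2 (0.84 ± 0.18, adjusted p = 0.00883) and Dll1 (0.94 ± 0.21, adjusted p = 0.0113) and the factor Hes6 (1.13 ± 0.20, adjusted p = 0.00406), none of them passing in array 3 alone. In array 3 alone 3 Notch genes fell and 0 rose. They were Notch2, Jag1 and Maml1, named after their values were seen, and Notch2 and Jag1 had also fallen in the fit to all arrays. Bmpr2, a BMP receptor, was the stable member of 41 TGF-beta, activin and BMP genes and fell (adjusted p = 0.00771), with a difference of -1.72 and an adjusted p of 0.197 in array 3 alone. Mapk11, the p38 beta kinase, rose by 1.31 ± 0.20 (adjusted p = 0.00187), so the 2 stable rises among 24 MAP kinase genes were p38 family members.

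Of the messages that hnRNP E1 is known to hold back, Fam3c, which encodes the secreted factor ILEI, was measured at 8.20, 8.87 and 8.73 in M1P, against 9.94, 10.17 and 10.28 in E1KD. It was lower on every M1P array (-1.53 ± 0.16, adjusted p = 0.000164) and passed in array 3 alone (adjusted p = 0.00138). Arrays measure the RNA and not its translation.

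Immune genes likewise had stable calls in both directions. Of 32 interferon-stimulated genes 2 rose stably, Oasl1, a relative of the antiviral oligoadenylate synthetases, by 3.07, 2.47 and 2.01 (2.52 ± 0.27, adjusted p = 0.000164), and the membrane protein Ifitm2 (1.05 ± 0.20, adjusted p = 0.00536). Of 17 class I antigen genes 2 rose stably, H2-M3 (2.19 ± 0.29, adjusted p = 0.000648) and the classical heavy chain H2-K1 (1.49 ± 0.32, adjusted p = 0.00948, and 0.207 in array 3 alone). Ccl2, the chief attractant of monocytes, had 10.17, 10.11 and 10.06 in M1P, against 10.65, 11.58 and 11.65 in E1KD (-1.18 ± 0.24, adjusted p = 0.00792, and 0.0709 in array 3 alone). The M1P arrays of Ccl2 were nearly equal, and those of E1KD were not. Tnfaip3, a brake on NF-kappa-B signalling, fell by 1.45 ± 0.29 (adjusted p = 0.00723).

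Genes of the secretory pathway had the highest share of stable rises among the lists of at least 12 genes, 6 of 25 ER stress and chaperone genes, with 0 stable falls. Xbp1, the transcription factor made by splicing in the unfolded protein response, had 11.37, 11.18 and 11.29 in M1P, against a mean of 9.93 in E1KD (1.35 ± 0.15, adjusted p = 0.000164). Sdf2l1, a resident cofactor of the chaperone BiP, had 10.07, 9.64 and 9.54 in M1P, against 8.18, 7.83 and 7.99 in E1KD (1.75 ± 0.20, adjusted p = 0.000262). Arrays of the lines did not overlap in either gene. The M1P arrays lay close together in Xbp1, and array 3 was the lowest of them in Sdf2l1. Manf, a secreted stress factor (0.84 ± 0.11, adjusted p = 0.000674), Pdia6, a protein disulfide isomerase (0.97 ± 0.16, adjusted p = 0.00316), Creld2 (0.88 ± 0.16, adjusted p = 0.00494), and Ppp1r15a, which restores translation after stress (0.68 ± 0.14, adjusted p = 0.00839), completed the 6. Over the whole list the median was 0.02, 0.43 and 0.35, against 0.37, 0.16 and 0.07 over all genes, so it was above that of all genes in arrays 2 and 3 and below it in array 1.

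In metabolism, the creatine pathway was split, with Gatm falling and Gamt, the enzyme of the next step, higher by 2.71, 1.97 and 1.24 (1.97 ± 0.31, adjusted p = 0.00223). Of 36 amino acid and creatine genes, 3 rose and 2 fell stably, the others being Bcat1, the aminotransferase Oat (0.74 ± 0.11, adjusted p = 0.0012) and the urea cycle enzyme Asl (1.09 ± 0.23, adjusted p = 0.00904). Of 29 cholesterol and fatty acid genes 2 fell stably, Hsd17b7 (-1.59 ± 0.31, adjusted p = 0.00622) and the carboxylase Acaca (-1.41 ± 0.32, adjusted p = 0.0113). Of 35 Nrf2 and glutathione genes 4 rose stably, with Gstp1, a glutathione transferase, at 0.87 ± 0.13 (adjusted p = 0.00185) and Gsr, which regenerates glutathione, at 0.81 ± 0.15 (adjusted p = 0.00536). The 3 stable rises among 31 proteasome genes were led by Psmd13 (1.17 ± 0.17, adjusted p = 0.00134). The small heat shock protein Hspb8 rose by 1.52 ± 0.19 (adjusted p = 0.000379), whereas the mitochondrial chaperonin Hspd1 fell by 1.05 ± 0.21 (adjusted p = 0.00683) and its co-chaperonin Hspe1 by 0.46 ± 0.11 (adjusted p = 0.0151).

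In 3 lists many more members fell in the fit to all arrays than fell stably, against 9.86% and 1.63% of all genes. Of 29 mitosis genes 14 fell, and 1 fell stably, the checkpoint kinase Bub1b (-0.91 ± 0.19, adjusted p = 0.00843), with 0 in array 3 alone. The mitosis median was -2.11 in array 1, -0.89 in array 2 and -0.27 in array 3. Of 38 chromatin modifiers 19 fell, 2 of them stably, with medians of -1.64, -0.58 and -0.70, and 4 fell in array 3 alone. Of 32 splicing factors and hnRNPs 16 fell, 3 of them stably, with medians of -2.05, -0.85 and -0.32, and 5 fell in array 3 alone, against 2.18% of all genes. The stable ones were the splicing proteins Hnrnpm (-1.41 ± 0.28, adjusted p = 0.00661), Son (-1.79 ± 0.36, adjusted p = 0.00685) and Srrm2 (-1.58 ± 0.28, adjusted p = 0.00349), and all 3 passed in array 3 alone. Array 1 thus carried the largest falls in each list. The median gene span was 82.2 kb for the chromatin modifiers, 27.2 kb for the mitosis genes and 19.5 kb for the splicing factors. Over all genes it was 20.3 kb. The part of gene length in these falls was not tested. Among genes that promote entry into DNA replication, the licensing factors Mcm5 (0.59 ± 0.11, adjusted p = 0.00469) and Cdc6 (0.56 ± 0.12, adjusted p = 0.0103) rose stably, 2 of 31.

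**Figure D3:**
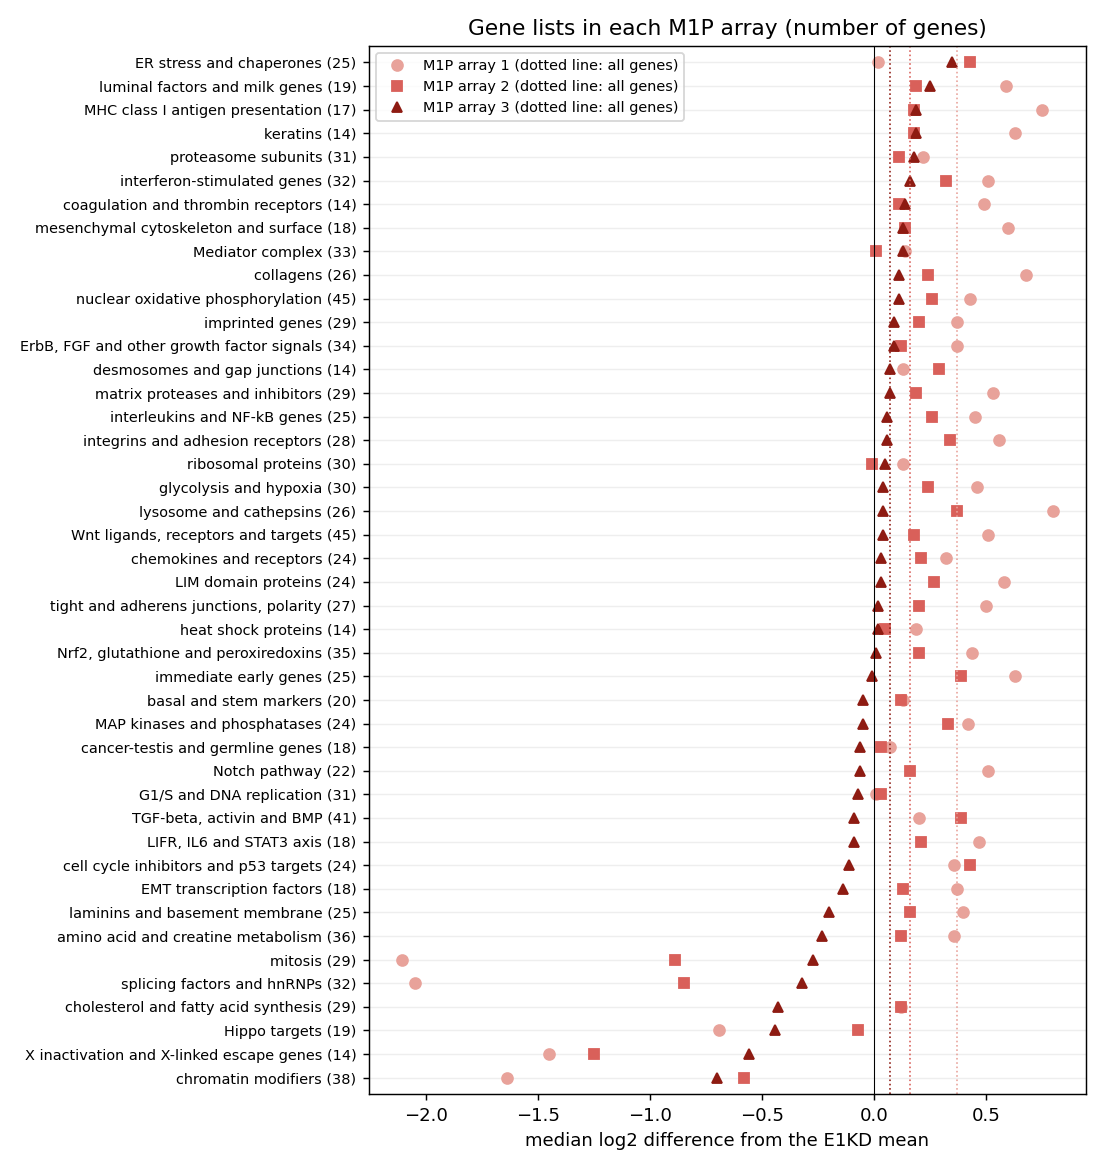
Median log2 difference from the E1KD mean in each M1P array for the gene lists with at least 12 members, ordered by array 3, with the line for all genes at 0.37, 0.16 and 0.07. Array 1 is widest, from -2.11 for mitosis upward, and the ER stress list is above all genes in arrays 2 and 3 only.

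Among X-linked genes of X inactivation and escape, 4 of 14 fell stably and 0 rose. Besides Xist, Kdm6a, a histone demethylase that escapes inactivation, had 4.62, 5.25 and 6.43 in M1P, against 7.35, 8.11 and 7.55 in E1KD (-2.23 ± 0.44, adjusted p = 0.00644). Utp14a (-1.77 ± 0.38, adjusted p = 0.00871) and Shroom4 (-1.87 ± 0.43, adjusted p = 0.0124) also fell, and these 3 genes did not pass in array 3 alone (adjusted p = 0.168, 0.0997 and 0.189). Array 3 was closest to E1KD in each of them, and only Xist was equally low in every M1P array. Of 29 imprinted genes 2 rose stably, Phlda2, a maternally expressed growth restrictor (1.07 ± 0.22, adjusted p = 0.00733), and Peg12 (1.24 ± 0.20, adjusted p = 0.00247), and Peg3 fell, so imprinted genes did not move together.

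On 2 chromosomes the share of genes that rose was well above the 17.7% of all genes. On chromosome 7, 440 of 1413 genes rose (31.1%) and 32 fell (2.26%), and on chromosome 5, 344 of 1121 rose (30.7%) and 51 fell (4.55%). Stable rises made up 12.7% of chromosome 7 and 10.5% of chromosome 5, and at most 5.25%, on chromosome 19, on each other chromosome. In array 3 alone, 88 genes of chromosome 7 rose and 8 fell, and 62 of chromosome 5 rose and 10 fell. The median difference from E1KD on chromosome 7, relative to genes of like span, was 0.14, 0.13 and 0.11 in arrays 1 to 3, and on chromosome 5 it was 0.16, 0.12 and 0.12. These shifts were nearly the same in all 3 M1P arrays, unlike the differences by gene length. Relative to the lung lines, the chromosome 7 median was 0.15, 0.11 and 0.09 and the chromosome 5 median 0.12, 0.13 and 0.10, each relative to the median of all genes in that array. Chromosomes 5 and 7 did not stand alone there. Chromosome 19 had 0.17, 0.15 and 0.12, and chromosome 14 had -0.21, -0.16 and -0.14. The L1P arrays, set against E1KD in the same way, had 0.01 to 0.04 on chromosome 7 and -0.02 to -0.01 on chromosome 5, and the L2P arrays 0.01 to 0.07 and -0.02 to 0.01. On chromosome 19 the L1P arrays had -0.14 and the L2P arrays -0.13 to -0.11. On chromosome 14 the L1P arrays had 0.16 to 0.18 and the L2P arrays 0.09 to 0.17. On the X chromosome 47 of 617 genes rose (7.62%) and 117 fell (19%), and the median relative to genes of like span was -0.25, -0.12 and -0.07. No test was made of these chromosome medians.

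Runs of 20 neighbouring genes were ranked by the M1P array with the smallest shift. The highest run lay on chromosome 7, with medians of 0.95, 0.71 and 0.52 above all genes and 16 of 20 genes risen. It held Zfp764, a zinc finger gene, with 7.75, 7.47 and 7.31 in M1P, against 5.33, 5.33 and 5.23 in E1KD (2.21 ± 0.13, adjusted p = 5.14e-07). Zfp764 averaged 7.55 in NMuMG, 7.18 in L1P and 7.42 in L2P, so E1KD was the low line for this gene. The run also held Sephs2, an enzyme of selenium metabolism (1.16 ± 0.17, adjusted p = 0.00125). The next 2 runs lay on chromosome 5, with 13 and 14 of 20 genes risen. The first of these held Oasl1 and Mlec, a carbohydrate-binding protein of the endoplasmic reticulum (1.22 ± 0.19, adjusted p = 0.00184). The 3 lowest runs lay on chromosomes 11, 8 and 6, with medians of -0.50, -0.48 and -0.48 in array 3 and 11, 10 and 7 genes fallen. Array 1 was far lower in the run on chromosome 11, at -2.42, and the median gene span there was 40.4 kb, against 8.49 kb in the highest run. Relative to genes of like span, the medians in arrays 1 to 3 were -2.25, -0.88 and -0.48 in the run on chromosome 11. In the highest run they were 0.78, 0.65 and 0.45.

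**Figure D4:**
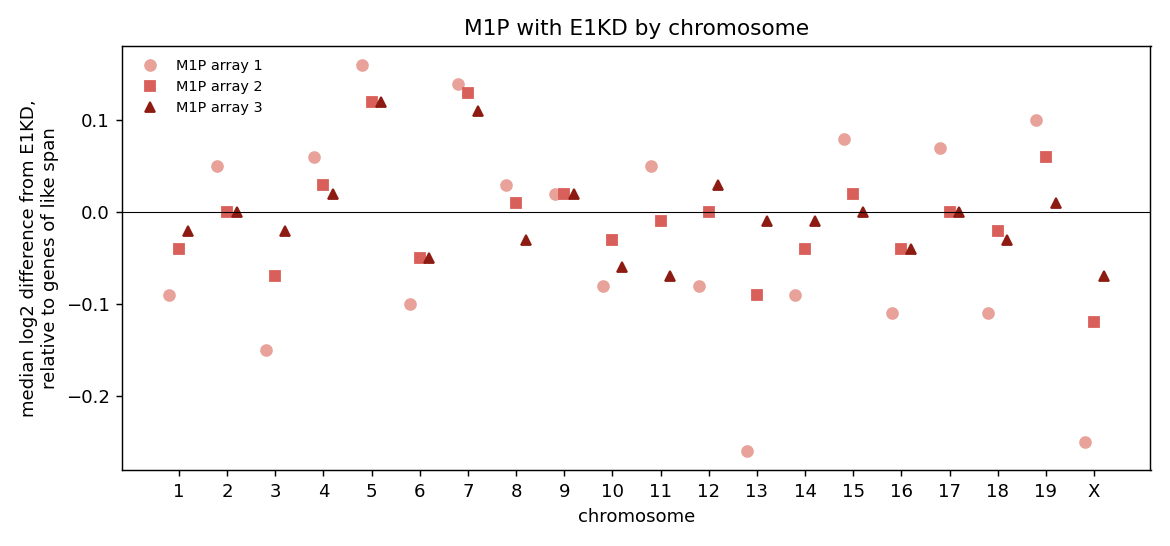
Median log2 difference from E1KD of each M1P array over the genes of each chromosome, relative to genes of like span. Chromosomes 5 and 7 lie between 0.11 and 0.16 in all 3 arrays, and X lies at -0.25, -0.12 and -0.07.

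The labelled cell type was checked against markers. The simple-epithelial keratins were near the top of the signal range in both lines, Krt8 at a mean of 14.04 in M1P and 13.90 in E1KD and Krt18 at 13.88 in M1P and 13.69 in E1KD. Individual markers of other cells of a tumour were near the lowest signals. The leukocyte gene Ptprc was at 2.49 in M1P and 2.49 in E1KD, and endothelial Pecam1 at 2.95 in M1P and 2.87 in E1KD. Fibroblast Col1a1 was at 3.65 in M1P and 3.43 in E1KD, and adipocyte Adipoq at 2.59 in M1P and 2.56 in E1KD. Not all leukocyte and endothelial markers were as low. A mean signal of at least 5 was reached by 4 of 13 macrophage and leukocyte markers and 3 of 12 endothelial markers. It was reached by 0 of 12 fibroblast, 0 of 6 adipocyte and 2 of 8 skeletal muscle markers. Of the 12 mammary epithelial markers, among them Krt8 and Krt18, 7 reached it. The median level of these 12 was 5.24 in M1P and 4.88 in E1KD, far below Krt8 and Krt18. Summed over 12 fibroblast markers, the linear signal was 267, 144 and 153 in M1P arrays 1 to 3, against 131, 123 and 128 in E1KD. Over 13 macrophage and leukocyte markers it was 2554, 2405 and 1575 in M1P, against 1219, 1456 and 1580 in E1KD, and over 12 endothelial markers 531, 541 and 508 in M1P, against 392, 360 and 363 in E1KD. By these sums array 1 was the highest for fibroblast genes and arrays 1 and 2 for macrophage genes, while the endothelial sums were even. The mean log2 level over the 13 macrophage and leukocyte markers was 4.94, 4.57 and 4.54 in M1P, against 4.44, 4.34 and 4.38 in E1KD. By that measure M1P arrays 2 and 3 were nearly equal. The sums over 8 skeletal muscle markers were 265, 219 and 199 in M1P, against 173, 150 and 166 in E1KD, those over 6 adipocyte markers 65.4, 56.0 and 48.4 in M1P, against 63.9, 68.6 and 67.3 in E1KD, and those over 2 erythrocyte markers 28.7, 23.9 and 21.7 in M1P, against 22.9, 20.8 and 19.3 in E1KD. Whether or not the gene passed, M1P averaged above E1KD in 13 of 13 macrophage and leukocyte and 12 of 12 endothelial markers. The same held for 8 of 8 muscle, 10 of 12 fibroblast and 4 of 6 adipocyte markers. It also held for 2 of 2 erythrocyte and 10 of 12 mammary epithelial markers, and for 12747 of all 18193 genes. In the fibroblast, endothelial and muscle lists 2 genes each rose, in the macrophage list 1, in the list of 12 mammary epithelial markers 1, and in the adipocyte list 1 fell. The stable call among these was Fabp4 of adipocytes, which fell (-0.87 ± 0.18, adjusted p = 0.00871). In such bulk RNA, fewer cells of a type and less RNA per cell cannot be told apart. The part of these marker differences in the results was not tested.

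M1P was also set against the lung lines L1P and L2P, which came from the same silenced cells by growth in mice, to find where the tumour line differed from them. In limma's test of M1P against the mean of L1P and L2P, 5827 genes were higher in M1P (32%) and 2970 lower (16.3%), and the total of 8797 was 4075 without M1P array 1 and 1551 in array 3 alone (8.53%). This comparison shares the M1P arrays with the first, so counts and genes of the 2 are not independent. The 6 genes with the widest gap in each direction to all 6 lung-line arrays kept their call under each alternative tried. They were picked for that gap from called genes on these same arrays, so keeping the call follows largely from the choice.

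Ly6e had 10.99, 10.66 and 9.73 in M1P, against 5.45, 5.51 and 4.67 in L1P and 5.75, 4.64 and 4.80 in L2P (5.32 ± 0.32, adjusted p = 6.94e-07). Irx3 had 8.34, 7.93 and 7.47 in M1P, against 4.47, 4.29 and 4.28 in L1P and 4.85, 3.88 and 4.11 in L2P (3.60 ± 0.23, adjusted p = 1.47e-06). Both genes had also risen above E1KD, so M1P was the highest of these lines. The beta-defensin Defb41 had 8.07, 8.15 and 8.58 in M1P, against 3.97, 3.56 and 3.91 in L1P and 3.18, 3.51 and 3.52 in L2P (4.66 ± 0.25, adjusted p = 3.15e-07). Stra6, a receptor for the retinol carrier protein (3.53 ± 0.29, adjusted p = 1.16e-05), and Pilra, an inhibitory immunoglobulin-like receptor (3.45 ± 0.20, adjusted p = 6.85e-07), were the next of the 6. Khdrbs3, an RNA-binding splicing regulator, had 5.71, 6.16 and 5.77 in M1P, against 2.65, 2.94 and 2.85 in L1P and 2.61, 2.78 and 2.51 in L2P (3.15 ± 0.14, adjusted p = 6.63e-08). It was nevertheless lower in M1P than in E1KD, where it averaged 7.57, so M1P lay between E1KD and the lung lines.

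In the other direction, Erbb3 had 8.36, 7.58 and 6.33 in M1P, against 10.57, 10.33 and 10.40 in L1P and 10.89, 10.54 and 10.53 in L2P (-3.12 ± 0.34, adjusted p = 7.71e-05). M1P was thus intermediate, since E1KD had 4.63, 4.63 and 4.84. The multidrug export pump Abcb1b had 3.68, 3.59 and 3.76 in M1P, against 7.96, 7.49 and 7.81 in L1P and 7.30, 7.51 and 7.40 in L2P (-3.90 ± 0.13, adjusted p = 3.18e-09). It averaged 3.18 in E1KD, so it was low in M1P and E1KD and high in every lung-line array. Nxf3, an X-linked relative of a messenger RNA export factor (-3.90 ± 0.42, adjusted p = 7.03e-05), Mei4, which is needed for meiotic recombination (-2.72 ± 0.25, adjusted p = 2.7e-05), the non-coding RNA Lncenc1 (-2.71 ± 0.13, adjusted p = 9.93e-08) and the zinc finger factor Zic5 (-2.58 ± 0.24, adjusted p = 2.92e-05) completed the 6.

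**Figure D5:**
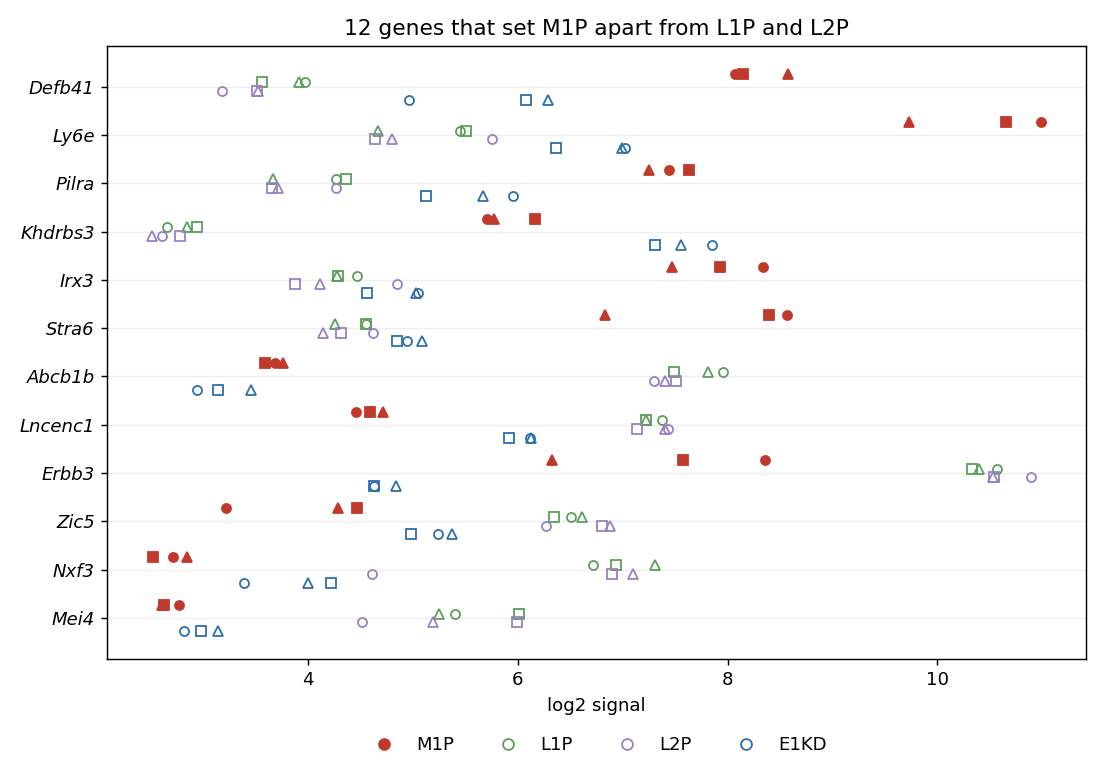
Log2 signal of each array of M1P, L1P, L2P and E1KD for the 6 genes with the widest gap above and the 6 with the widest gap below all lung-line arrays, with circles, squares and triangles for arrays 1, 2 and 3. Ly6e and Irx3 are highest in M1P, Khdrbs3 and Erbb3 lie between E1KD and the lung lines, and Abcb1b is high in the lung lines only.

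The genes first described differed in how M1P stood to the lung lines. The mean log2 signal of Tm4sf1 was 13.35 in M1P, 11.18 in L1P, 13.20 in L2P and 6.44 in E1KD. That of Crip1 was 10.99 in M1P, 11.64 in L1P, 11.75 in L2P and 5.31 in E1KD. Gatm averaged 2.46 in M1P, 2.30 in L1P, 2.44 in L2P and 7.41 in E1KD. The passaged lines thus lay on one side of E1KD in these genes, as they did in Xist, with 4.46 in M1P, 3.93 in L1P, 4.03 in L2P and the 3 values given above in E1KD. Csn3 averaged 7.76 in M1P, 5.44 in L1P, 5.85 in L2P and 3.78 in E1KD, and Wnt10a 9.55 in M1P, 6.96 in L1P, 7.18 in L2P and 4.68 in E1KD. M1P was the highest of these lines in both. Cxcl3 averaged 7.10 in M1P, 2.50 in L1P, 9.04 in L2P and 2.49 in E1KD, so L1P was near E1KD and L2P was not. These values share the E1KD arrays and are given side by side.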

How the data were processed

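The authors deposited 1 table of log2 signals for 45101 probe sets on 15 Affymetrix 3′ expression arrays, 3 per line for 5 lines, with no further scaling here. The submitters' processing notes name RMA, MAS5 and the Affymetrix Expression Console, in versions not given in the sources used here. Deposited values ran from 1.53 to 14.68 with array medians of 4.17 to 4.26. No detection call was used, arrays carry no read depth, and precision is limited by having 3 arrays per line.

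Gene names come from the platform annotation, with symbols updated by Entrez identifier from a RefSeq gene table (GRCm38.p6) for 34741 of 34945 probe sets with 1 symbol. Another 932 with several symbols and 9160 with none stayed out. All 15 arrays entered 1 model in limma 3.58.1 (R 4.3.3) with a coefficient for each line (10 residual and 2.98 prior degrees of freedom), with two-sided moderated tests adjusted by Benjamini and Hochberg over 18193 genes at a threshold of 0.05. The test was also run on simulated data, with the outcome not given here. All lines share 1 estimate of spread, so the wider spread of M1P affects the calls. The median SD per gene was 0.318 in M1P, against 0.136 to 0.192 in the other lines. The shared estimate is thus too small for M1P in a typical gene. With 1 weight per line 1793 genes were called, in place of 5015.

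The named genes are Pcbp1, the 14 widest gaps between nearest arrays in each direction, up to 3 passing members per list and direction by size, and the 6 widest gaps to the lung lines each way. Naming of list members was narrowed to calls that held on leaving out each array in turn, and further such members were added, after the values were seen. The comparison, members and lists were chosen with earlier results of these data known. The alternatives tried concerned the arrays in the model, weights, scaling, a filter on low signal, the choice of probe set, the prior, the replicate block and arrays left out. Gene spans and order are from the same RefSeq table and promoters from RefSeq.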

Additional observations from a re-analysis of the deposited data

Results flagged for a closer look

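The 12 genes that set M1P apart from the lung lines differed in the test of M1P against the mean of L1P and L2P, which are 2 other passaged lines of the same origin. The log2 difference was 4.66 for Defb41, 5.32 for Ly6e, 3.45 for Pilra, 3.15 for Khdrbs3, 3.60 for Irx3 and 3.53 for Stra6. It was -3.90 for Abcb1b, -2.71 for Lncenc1, -3.12 for Erbb3, -2.58 for Zic5, -3.90 for Nxf3 and -2.72 for Mei4.

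The poly(A) spike-in controls, which are added to the RNA before amplification and are no part of the cells, were higher in M1P than in E1KD by a mean of 1.27 log2 units. M1P array 3 had the highest value of the 15 arrays, 8.16, and NMuMG arrays had 6.60, 7.46 and 7.21.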

How the results depend on the processing

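In the order of genes changed, changed at least 2-fold, changed with no overlap and changed against the lung lines, the counts of 5015, 1863, 4650 and 8797 became 67, 67, 67 and 5094 with only the lines compared in the model, 164, 160, 162 and 590 with array weights, 1793, 1174, 1776 and 3055 with 1 weight per line, a setting added after seeing the data, and 809, 400, 809 and 1551 with M1P array 3 alone, whose spread is then assumed to be that of the other lines. Leaving out 1 array at a time gave 1106 to 8510, 583 to 3462, 1106 to 8374 and 4075 to 10598. The causes were not tested. Quantile normalization (4139 changed), median centring (4848), a mean signal of at least 5 (4294), the probe set of largest variance (5372) and an intensity trend with a robust prior (4834) stayed within 1.5 times. The median difference of all genes was 0.20, against 0.10 after quantile normalization and 0.23 after median centring, and 64.2%, 62.6% and 61.8% of the calls were rises. The replicate block gave 6911, 2293, 5591 and 9933, but same-numbered M1P and E1KD arrays deviated together at 0.47, -0.04 and -0.36 for replicates 1, 2 and 3, so the numbers do not pair the arrays. In that fit Pcbp1 passed (adjusted p = 0.0474). Of 118 called results on single genes, 46 kept their call under all alternatives and 0 changed direction. The 46 include every named call against the lung lines, which were picked for wide gaps. Calls were lost for 67 with only the lines compared, 62 with array weights (Onecut2 at 0.205 and Ints6 at 0.0529 among the 28), 6 with 1 weight per line and 30 in array 3 alone. Signals near the floor, as of Gatm, Klhl13 and F2r in M1P, limit how large a fall can be measured.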
